A study of Mus musculus with 6 samples.

Results

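The genes described here encode the nuclear subunits of the 5 complexes of oxidative phosphorylation, together with cytochrome c, in 4T1 mouse mammary carcinoma cells. They were picked by symbol from the deposited expression matrix: names starting with Ndufa, Ndufb, Ndufc, Ndufs or Ndufv and a digit, Sdha to Sdhd, names starting with Uqcr, Cox4 to Cox8 or Atp5, and Cycs and Cyc1, with names holding -ps left out. Of 56448 genes in the matrix, 91 had such a name, and 79 of these reached a mean of at least 1 TPM (a transcript's share of its library, already divided by transcript length) over all libraries. The 79 genes were 37 of complex I, 4 of complex II, 9 of complex III, 11 of complex IV, 17 of complex V and Cycs. Among the 37, Ndufb4c has no annotated coding sequence (GENCODE M21) and is counted by its name alone.

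The series is about a 4T1 line in which miR-9 was knocked down stably by lentivirus. Messenger RNA was sequenced from 3 libraries labelled in9 and 3 labelled LV2, both grown in serum-containing medium with no treatment named. The labels give these names as genotypes, do not spell them out and do not say which is the control, nor whether infected cells were kept as a pool or as a clone. All differences below are in9 minus LV2. The labels do not tie the 3 libraries of a group to separate cultures; the tests below use the spread between them, which may be technical.

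Oxidative phosphorylation passes electrons from NADH (through complex I) and from succinate (through complex II) to ubiquinone, then through complex III, cytochrome c and complex IV to oxygen, while complexes I, III and IV pump protons. Complex V, the ATP synthase, uses the returning protons to make ATP. Complex II is built from nuclear genes alone, whereas the other complexes also hold subunits encoded on the mitochondrial chromosome. 4T1 cells are known for respiring as well as fermenting glucose and for metastasising in mice.

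The matrix gives TPM values without read counts, so the depth per library is unknown, and no counting interval can be given. Of 10 epithelial carcinoma markers, 8 reached a mean of 1 TPM. The 10 summed to 2249 to 2305 TPM in in9 and 2348 to 2404 TPM in LV2, mostly from Krt8 and Krt18. Krt8 ranged between 865 and 887 TPM in in9 and between 914 and 941 TPM in LV2. Krt14 and Cldn7 averaged 3.20 and 3.05 TPM over all libraries. Krt5 and Trp63 stood near 0, at most 0.09 TPM in in9 and 0.03 TPM in LV2. Summed fibroblast markers (8 genes, nearly all from Pdgfra, with Lum listed at 0 throughout) ranged over 7.95 to 8.43 TPM in in9 and 4.74 to 6.76 TPM in LV2. Summed leukocyte markers (8 genes, nearly all from Cd68 and Cd14, with Adgre1 listed at 0 throughout) ranged over 51.0 to 57.4 TPM in in9 and 46.0 to 50.8 TPM in LV2. Summed endothelial markers (6 genes, Cldn5 and Emcn listed at 0 throughout) ranged over 1.97 to 2.17 TPM in in9 and 1.72 to 1.95 TPM in LV2. The defining markers of these other cell types stood near 0: Col1a1 reached at most 0.23 TPM in in9 and 0.18 TPM in LV2, and Ptprc 0.09 TPM in in9 and 0.12 TPM in LV2. On the first principal component of all tested genes (28.1% of the variance), in9 replicate 1 lay at -2.70. In9 replicates 2 and 3 lay at 26.1 and 27.8, and the LV2 libraries at -6.98, -22.0 and -22.2. In9 replicate 1 thus lay furthest from its group. LV2 replicate 1 also lay apart from its group, and nearest to in9 replicate 1. Counts of calls below are therefore given with and without in9 replicate 1.

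The mature miR-9-5p is shown because its knockdown is what the series is about. The sequence is from RefSeq (GRCm38.p6), where it is encoded on chromosomes 3, 7 and 13, and capitals mark the seed, bases 2 to 8.
mmu-miR-9-5p: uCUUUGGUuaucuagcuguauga
The precursor genes Mir9-1, Mir9-2 and Mir9-3 were listed at 0 TPM in every library, and mature miRNAs are not measured by such libraries, so the knockdown could not be checked here. Few of the respiratory genes carry a seed match. In the longest 3′ UTR of a gene (GENCODE M21), 3 of 78 members with such a UTR (3.85%) held a match, against 2741 of 10916 other tested genes (25.1%). The members' 3′ UTRs were also shorter, with a median of 280.5 bases against 1356 bases. The 3 sites, in genes on chromosomes 3, 6 and 15, are 7-base matches to seed positions 2 to 7 followed by an A; capitals mark the match within the mRNA sense strand.
Atp5pb: tattttctatCCAAAGAaatata
Ndufb2: ggtttgtttcCCAAAGAaacagt
Cox6c: ggattgcgctCCAAAGAagttca
The log2 fold changes of these 3 genes were -0.06, -0.25 and -0.16, within the range of members that hold no match. A match is a string of letters in an annotation, not a measured binding site. The Ndufb2 match starts at position 1879 of a 3′ UTR of 4012 bases, while the matrix gives this gene a length of 455 bases.

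Nuclear respiratory genes are known to share promoter elements for NRF1, for ETS-family factors such as GABP, and for YY1. Promoters of 300 bases (250 before the start to 50 after it; RefSeq, GRCm38.p6) were at hand for 65 of the 79 genes. On either strand, the NRF1 letters, GCGC and again GCGC with any 2 bases between, were in 18 of them (27.7%), against 9.61% of 17492 promoters of protein-coding genes. The ETS letters CCGGAAG were in 17 (26.2%, against 12.9%), and the YY1 letters AAGATGGC were in 10 (15.4%, against 3.57%). The 39 members with any of these motifs had a median log2 fold change of -0.14, and the 26 with none had -0.13. The following 3 promoters each hold at least 1 NRF1 and 1 ETS match, which capitals mark (CTTCCGG is the ETS match on the other strand), and belong to genes with log2 fold changes of 0.02, -0.07 and -0.44, in this order. They lie on the minus strand at chr9:50603800-50604099, chr5:115348909-115349208 and chr5:108434350-108434649.
Sdhd: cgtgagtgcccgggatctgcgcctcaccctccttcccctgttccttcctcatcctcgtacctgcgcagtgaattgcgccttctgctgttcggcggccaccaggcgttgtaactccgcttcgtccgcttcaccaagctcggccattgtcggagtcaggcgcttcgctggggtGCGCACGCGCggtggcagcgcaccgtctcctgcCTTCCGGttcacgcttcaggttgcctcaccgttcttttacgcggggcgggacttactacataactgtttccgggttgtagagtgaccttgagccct
Cox6a1: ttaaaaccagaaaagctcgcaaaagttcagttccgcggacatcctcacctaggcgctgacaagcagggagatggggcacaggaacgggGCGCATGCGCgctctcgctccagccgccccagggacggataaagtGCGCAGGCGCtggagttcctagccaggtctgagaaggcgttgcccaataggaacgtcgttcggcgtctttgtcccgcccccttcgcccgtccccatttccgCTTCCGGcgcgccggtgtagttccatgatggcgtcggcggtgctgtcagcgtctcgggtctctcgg
Atp5k: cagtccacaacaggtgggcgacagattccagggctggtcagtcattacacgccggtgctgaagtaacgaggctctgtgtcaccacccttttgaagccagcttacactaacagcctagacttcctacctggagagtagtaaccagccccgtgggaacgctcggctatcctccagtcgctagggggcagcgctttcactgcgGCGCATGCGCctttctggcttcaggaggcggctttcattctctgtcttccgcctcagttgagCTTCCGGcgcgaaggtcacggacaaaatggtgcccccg
The same letters thus stand before genes near 0 and before one of the lowest members. The promoter of Atp5h, not shown, also holds an NRF1 and an ETS match, and its log2 fold change was -0.11.

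The members were abundant. Their summed level was 22078, 18988 and 19695 TPM in in9 replicates 1 to 3, and 21409, 21438 and 21881 TPM in LV2, which is on average 2.03% of all TPM in in9 and 2.16% in LV2. Single genes spanned a wide range even though subunits enter a complex in fixed proportions. In complex V the mean level over the 6 libraries ran between 18.9 TPM for Atp5g2 and 2353 TPM for Atp5b, a ratio of 124. Atp5g2 shares its mature protein with Atp5g1 and Atp5g3, and these 3 genes summed to 729 to 859 TPM in in9 and 866 to 902 TPM in LV2. The next lowest gene of complex V was Atp5j, at 177 TPM. In complex I the mean level ran between 14.7 TPM for Ndufb4 and 634 TPM for Ndufb9, a ratio of 43.0. Reads of Ndufb4 may have been split with its near-identical copy Ndufb4c, at 70.3 TPM. The next lowest gene of complex I was Ndufb2, at 49.0 TPM. The other complexes were more even: 80.1 TPM (Sdhc) to 177 TPM (Sdhd) in complex II, 105 TPM (Uqcrfs1) to 544 TPM (Uqcr10) in complex III, and 148 TPM (Cox7a2l) to 871 TPM (Cox8a) in complex IV.

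**Figure D1:**
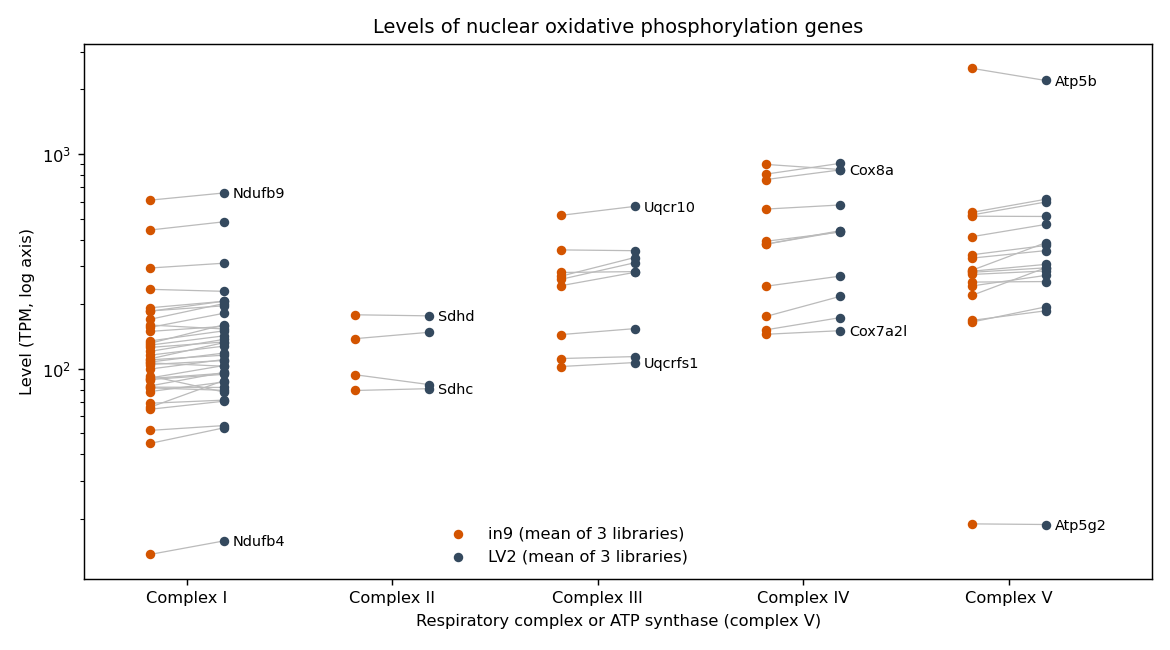
Mean level of each nuclear subunit gene in in9 and LV2 (TPM, log axis; each point is the mean of 3 libraries and a grey line joins the same gene), by complex. Levels differ far more between genes than between groups, with Atp5b at the top of complex V. At the foot of complex I is Ndufb4, whose reads may have been split with its copy Ndufb4c.

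The names that fell under the level threshold were mostly tissue-restricted isoforms. The genes just inside and just outside it were Ndufb4, with a mean of 14.7 TPM, and Cox6a2, the heart and skeletal muscle isoform of subunit 6a, with 0.732 TPM. Cox7a1, another muscle isoform, had 0.527 TPM, Ndufa4l2 0.113 TPM, Cox7b2 0.0767 TPM and Cox4i2, the isoform known from lung, 0.0233 TPM. The remaining names, among them the muscle isoform Cox8b and the testis isoforms Cox6b2 and Cox8c, were listed at 0 in every library. Among the names with -ps that the rule leaves out, Ndufb1-ps, which the matrix describes as complex I subunit B1, reached 87.0 TPM and Ndufa12-ps 25.9 TPM. Ndufab1, the acyl carrier subunit of complex I, is not reached by the name rule.

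The comparison of in9 with LV2 asks how the messenger RNA of the respiratory chain differs between the lines of the knockdown experiment. No member passed the test: in limma on log2(TPM + 1), with p-values adjusted by the Benjamini-Hochberg method over 13406 tested genes, 0 of 79 members had an adjusted p under 0.05, against 1.01% of all tested genes. The smallest adjusted p was 0.0779, for Ndufs7. Most members nevertheless had lower values in in9. The log2 fold change was negative for 66 of 79 members, against 36.3% of all tested genes, and its median was -0.14, against 0.06 over all tested genes. At an unadjusted p under 0.05, 17 members were lower (5.86% of all tested genes) and 2, Sdha and Atp5b, were higher (13.6% of all tested genes). All in9 libraries lay below all LV2 libraries for 12 members (8.08% of all tested genes) and above them for 3, Sdha, Cox8a and Atp5b (17.4% of all tested genes). The range ran between -0.46 for Atp5e and 0.24 for Ndufv3. With values rescaled by a trimmed mean, 74 of 79 members were negative (median -0.20, against 0.01 over all tested genes); Sdhd, Uqcrc1, Atp5g2, Atp5a1, Ndufs1, Ndufv1, Ndufa7 and Ndufa10, all near 0, then changed sign. In whole-culture RNA, fewer cells of a kind and less RNA per cell cannot be told apart.

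The libraries of in9 were not alike in this respect. Relative to the LV2 mean, the median difference over the 79 genes was 0.02 in in9 replicate 1, -0.20 in replicate 2 and -0.18 in replicate 3 on the log2(TPM + 1) scale. Over all tested genes these medians were 0.00, 0.08 and 0.09. In 61 of the 79 genes in9 replicates 2 and 3 both lay below every LV2 library, against 14.1% of all tested genes. In 49 of those 61 in9 replicate 1 did not, against 808 of the 1891 such genes among all tested. In9 replicate 1 was the highest in9 library for 67 of 79 members, against 3656 of 13406 tested genes. Without in9 replicate 1, limma called 32 members lower and 2 higher (Sdha and Atp5b), with a median of -0.20; of 13386 genes tested that way, 3.80% were called lower and 7.25% higher. The absence of calls with all libraries and the 32 calls without this 1 library thus hang on whether it is used.

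**Figure D2:**
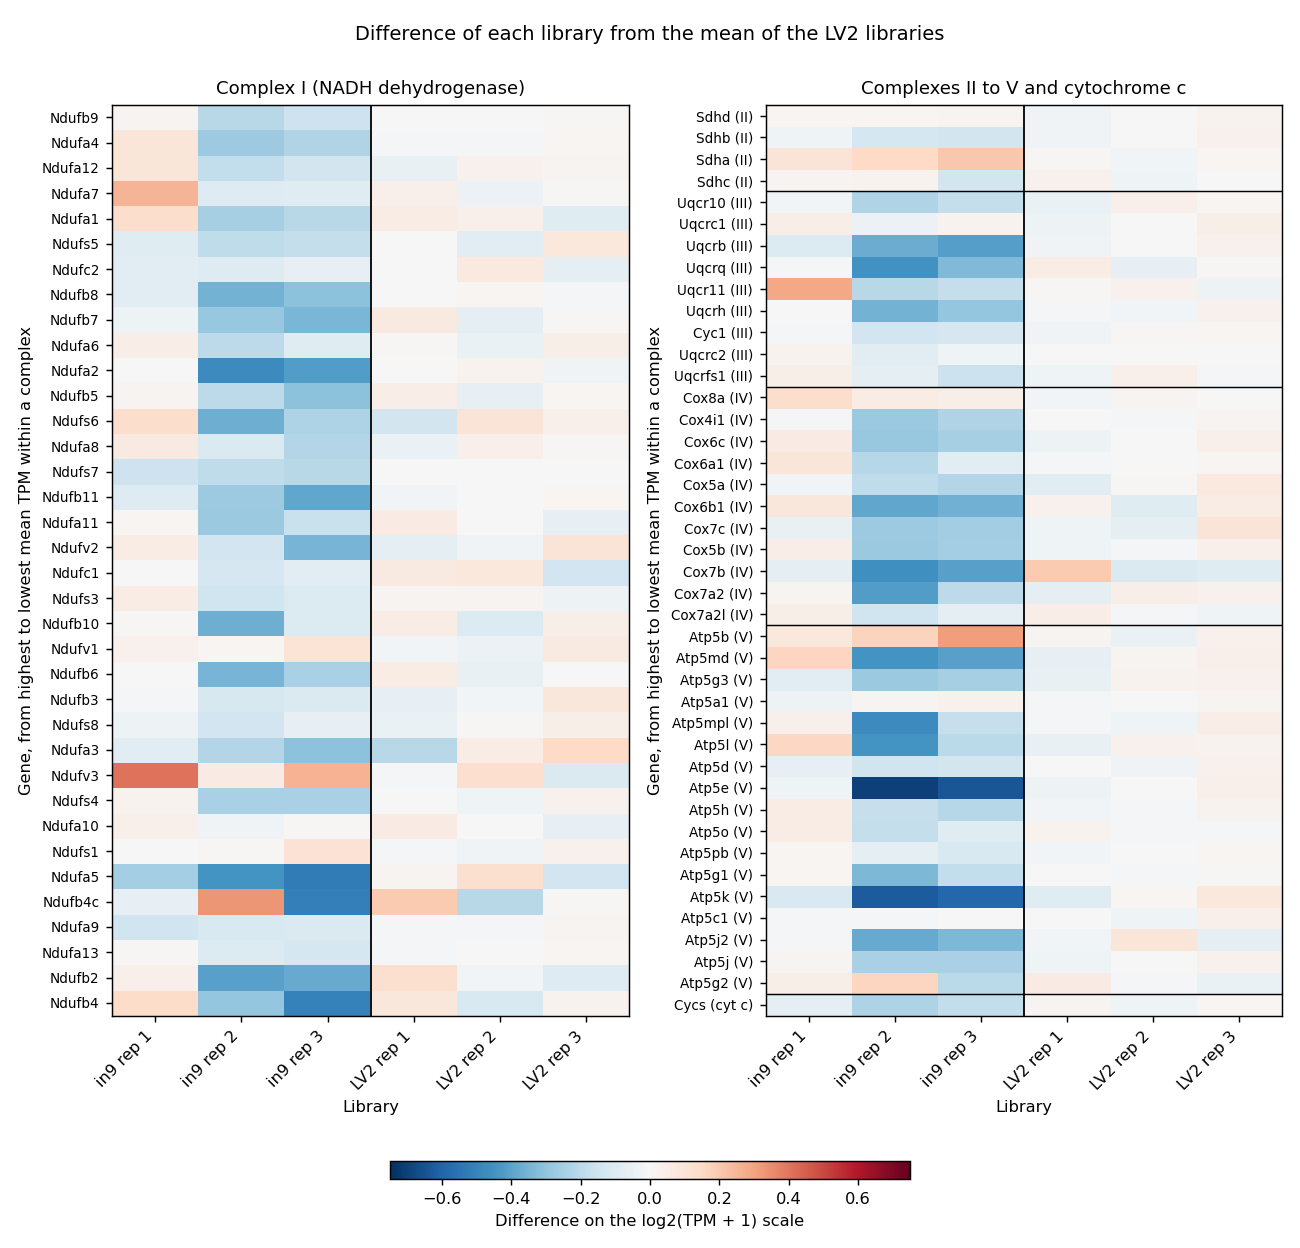
Difference of each library from the mean of the LV2 libraries on the log2(TPM + 1) scale for 78 of the members (rows, ordered by mean TPM within a complex) in the 3 in9 and 3 LV2 libraries (columns). Blue cells fill in9 replicates 2 and 3, where the median is -0.20 and -0.18, while in9 replicate 1 has a median of 0.02 and looks like the LV2 columns.

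Complex I takes electrons from NADH through flavin and iron-sulphur centres in a matrix arm to ubiquinone and pumps protons through a membrane arm. Of its 37 genes, 31 had a negative log2 fold change and the median was -0.12. None passed the test with all libraries (8 lower and 0 higher at an unadjusted p under 0.05). Without in9 replicate 1, limma called 12 lower and 0 higher. Over all tested genes, 5.86% were lower and 13.6% higher at that unadjusted p. With in9 replicate 1 left out, 3.80% of them were called lower and 7.25% higher. These shares also apply to the counts of complexes II to V below. The 7 core subunits, the nuclear ones that carry out the electron transfer, had a median of -0.06. The 30 accessory genes, Ndufb4c among them, had -0.14. The core genes were also longer, with a median coding length of 789 bases, against 393 bases for the 29 accessory genes with a coding sequence. The difference in log2 fold change, and the part of coding length in it, was not tested.

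Gene coordinates here are those of GENCODE M21 on mm10 (GRCm38). Among the core subunits, Ndufs7 (chr10:80249121-80256794), which carries the last iron-sulphur centre before ubiquinone, stood at 123, 120.1 and 119 TPM in in9, against 137, 137 and 137 TPM in LV2. The groups did not overlap and LV2 hardly varied. Its log2 fold change was -0.18 ± 0.04 (SE; limma adjusted p = 0.0779, and 0.0265 without in9 replicate 1). Ndufs1 and Ndufv1, the largest iron-sulphur protein and the NADH-binding flavoprotein, had log2 fold changes of 0.04 and 0.05. Ndufs3, Ndufs8 and Ndufv2 had -0.06, -0.08 and -0.14. The core genes thus lay on both sides of 0, though Ndufs1 and Ndufv1 turned negative under the trimmed-mean scaling.

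Ndufa5 (chr6:24518666-24528013), an accessory subunit of the matrix arm, had 73.5, 64.3 and 60.7 TPM in in9, against 89.4, 95.6 and 79.6 TPM in LV2. All in9 libraries were below all LV2 libraries, and this was the largest negative log2 fold change of complex I, -0.41 ± 0.09 (limma adjusted p = 0.0996, and 0.0294 without in9 replicate 1). Ndufb8 and Ndufb11 belong to the far end of the membrane arm. Ndufb8 stood at 190.5, 157 and 162 TPM in in9, against 201, 204 and 199 TPM in LV2. Ndufb11 stood at 124, 109 and 101 TPM in in9, against 131, 133 and 134 TPM in LV2. In both, in9 replicate 1 lay between the other in9 libraries and LV2, and the groups did not overlap; the log2 fold changes were -0.25 (limma adjusted p = 0.155) and -0.25 (0.151). Ndufs5 (-0.15) and Ndufa9 (-0.12), an accessory subunit near the ubiquinone site, were the other members of complex I whose groups did not overlap.

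Ndufb9, the most abundant gene counted in complex I, had 669, 570.1 and 591 TPM in in9, against 657, 656 and 663 TPM in LV2. In9 replicate 1 exceeded all LV2 libraries while the other two were below them. Ndufb2, whose seed match lies far into its longest annotated 3′ UTR, had 54.5, 39.7 and 40.6 TPM in in9. In LV2 it had 57.6, 52.3 and 49.4 TPM, and the groups overlapped. Its log2 fold change of -0.25 had a limma adjusted p of 0.346. The opposite direction was seen for Ndufv3, a subunit at the NADH-binding end, with 104, 81.2 and 93.4 TPM in in9, against 77.0, 84.9 and 72.2 TPM in LV2. The groups overlapped (log2 fold change 0.24 ± 0.10, limma adjusted p = 0.259), and this gene was named after its values were seen.

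Ndufb4 and Ndufb4c are near-identical copies, between which reads may have been split. Ndufb4 had 17.5, 12.7 and 10.8 TPM in in9, against 16.8, 14.5 and 16.1 TPM in LV2. Summed with Ndufb4c the level was 85.6, 102.5 and 60.3 TPM in in9, against 98.3, 76.0 and 87.6 TPM in LV2. The sum spread more within each group than it differed between them. Ndufa4 carries a complex I name although its protein is now assigned to complex IV. It had 515, 400.4 and 413 TPM in in9, against 480.3, 481 and 489 TPM in LV2, with in9 replicate 1 the highest library of all. Without it complex I has a median of -0.12, and with it complex IV has -0.16.

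Complex II, succinate dehydrogenase, is also an enzyme of the citric acid cycle. It was the only complex whose 4 genes were split evenly, 2 negative and 2 positive, with a median of -0.01; under the trimmed-mean scaling Sdhd turned negative and the median was -0.07. None passed the test with all libraries (0 lower, 1 higher at an unadjusted p under 0.05). Sdha (chr13:74322254-74350280), the flavoprotein that oxidises succinate, had 90.2, 93.8 and 97.5 TPM in in9, against 84.8, 83.3 and 85.3 TPM in LV2. All in9 libraries, replicate 1 included, were above all LV2 libraries (log2 fold change 0.15 ± 0.05, limma adjusted p = 0.158, and 0.0478 without in9 replicate 1). Sdhb, the iron-sulphur subunit, had 145, 135 and 135 TPM in in9, against 145, 148 and 151 TPM in LV2. The in9 libraries were all lower, replicate 1 only just (log2 fold change -0.10, limma adjusted p = 0.298). The membrane anchors overlapped between groups. Sdhc had 82.0, 82.4 and 73.5 TPM in in9, against 82.7, 78.9 and 80.9 TPM in LV2. Sdhd had 178, 178 and 179 TPM in in9, against 173, 177 and 179 TPM in LV2.

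Complex III, the cytochrome bc1 complex, moves electrons from ubiquinol to cytochrome c. Its 9 genes had a median of -0.09, with 8 negative, and 2 genes lower and 0 higher at an unadjusted p under 0.05. The 5 small subunits had a median of -0.21, and all 5 were called lower without in9 replicate 1 (3.80% of all tested genes were). The catalytic nuclear subunits, the Rieske iron-sulphur protein Uqcrfs1 and cytochrome c1 (Cyc1), had -0.06 and -0.09. The large core proteins Uqcrc1 and Uqcrc2 had 0.01 and -0.03. The differences between these kinds of subunit, and the part of coding length in them, were not tested. Uqcrc1 had 368, 344 and 361 TPM in in9, against 346, 354 and 365 TPM in LV2, so its groups overlapped fully.

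Among the small subunits, Uqcrb (chr13:66900617-66905378), which helps to form the ubiquinone pocket, had 307, 255 and 248 TPM in in9, against 323, 329 and 337 TPM in LV2. The groups did not overlap (log2 fold change -0.29 ± 0.08, limma adjusted p = 0.139, and 0.00790 without in9 replicate 1). Uqcrq had 308, 227 and 247 TPM in in9, against 323, 298 and 313 TPM in LV2, with in9 replicate 1 inside the LV2 range (-0.27, limma adjusted p = 0.252). Uqcrh, the hinge protein next to cytochrome c1, had 282, 220.04 and 229.5 TPM in in9, against 279, 278 and 288 TPM in LV2. Again replicates 2 and 3 of in9 alone were low. Uqcr10 had 563, 487 and 504 TPM in in9, against 551, 584 and 576 TPM in LV2, with a log2 fold change of -0.14.

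Cytochrome c, the mobile carrier between complexes III and IV, is encoded by Cycs (chr6:50562563-50566538). It had 67.7, 60.3 and 62.4 TPM in in9, against 72.0, 69.4 and 71.8 TPM in LV2. The groups did not overlap, by a narrow margin for in9 replicate 1 (log2 fold change -0.16 ± 0.06, limma adjusted p = 0.194, and 0.0413 without in9 replicate 1).

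Complex IV, cytochrome c oxidase, reduces oxygen at metal centres that its mitochondrially encoded subunits hold; the nuclear subunits surround them. Of 11 nuclear genes 10 had a negative log2 fold change, and the median was -0.16. None passed the test with all libraries (2 lower and 0 higher at an unadjusted p under 0.05). No gene had all in9 libraries below LV2, since in9 replicate 1 had a median difference of 0.04, against -0.28 and -0.23 in replicates 2 and 3. Without in9 replicate 1, 5 genes were called lower (3.80% of all tested genes) and 0 higher (7.25%): Cox4i1, Cox5b, Cox6b1, Cox6c and Cox7c.

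Cox4i1, which binds adenine nucleotides and joins early in assembly, had 899.96, 747 and 772 TPM in in9, against 901.1, 895 and 917 TPM in LV2. Its log2 fold change was -0.17 (limma adjusted p = 0.261). Cox5a, its early partner, had 426, 379.7 and 372 TPM in in9, against 409.6, 435 and 455 TPM in LV2. Among the small membrane-spanning subunits, Cox7b had 206, 157 and 163 TPM in in9, against 248, 200.5 and 203 TPM in LV2. LV2 replicate 1 and in9 replicate 1 were both high here, and the groups overlapped (-0.31 ± 0.13, limma adjusted p = 0.248). Cox7c had 418, 360.4 and 363 TPM in in9, against 426, 416 and 466 TPM in LV2 (-0.20, limma adjusted p = 0.221). Cox6b1 and Cox7a2 had log2 fold changes of -0.22 and -0.20, and Cox7a2l, a factor that joins complexes III and IV into supercomplexes, had -0.06.

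Cox8a (chr19:7215153-7217616), the widely expressed isoform of subunit 8, went the other way. It had 929, 880.2 and 874 TPM in in9, against 834, 859 and 848 TPM in LV2. In TPM the groups did not overlap, with in9 replicate 1 the highest (log2 fold change 0.08 ± 0.04, limma adjusted p = 0.328). The value hung on the scaling: 0.02 ± 0.06 (limma adjusted p = 0.890) with the trimmed mean and 0.14 ± 0.03 (0.0975) with quantile normalization. Cox6a1, whose muscle counterpart lay under the level threshold, had 617, 498 and 547 TPM in in9, against 576, 577 and 584 TPM in LV2, so its in9 libraries lay on both sides of LV2.

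Complex V makes ATP in a matrix head (F1) that is driven by a membrane rotor. Its 17 genes had a median of -0.15, with 14 negative, and held both the lowest member, Atp5e, and one of the higher ones, Atp5b. None passed the test with all libraries (4 lower and 1 higher at an unadjusted p under 0.05). Without in9 replicate 1, limma called 9 lower (3.80% of all tested genes) and 1, Atp5b, higher (7.25%). The 5 genes of the head and central stalk had a median of -0.01, the 4 of the peripheral stalk -0.09, the 3 of the c ring -0.17, and the 5 small membrane subunits -0.23. The differences between these parts, and the part of coding length in them, were not tested.

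In the head, Atp5b (chr10:128083273-128090391) encodes the catalytic beta subunit. It had 2319, 2469 and 2731 TPM in in9, against 2226, 2120.5 and 2252 TPM in LV2. All in9 libraries were higher (log2 fold change 0.19 ± 0.07, limma adjusted p = 0.199, and 0.0428 without in9 replicate 1). Atp5a1, the alpha subunit that alternates with beta, averaged 513 ± 13.3 TPM in in9 and 512 ± 6.21 TPM in LV2 (SD, n = 3 each), and Atp5c1, the rotating gamma subunit, 253 ± 1.08 TPM in in9 and 255 ± 6.48 TPM in LV2. Atp5d, in the foot of the central stalk, had a log2 fold change of -0.12 (limma adjusted p = 0.198) and no overlap between groups. Its partner Atp5e (chr2:174461072-174464105) had 377, 237 and 247 TPM in in9, against 376, 386 and 397 TPM in LV2. In9 replicate 1 was at the LV2 level and the other in9 libraries were far below it (-0.46 ± 0.17, limma adjusted p = 0.215, and 0.00369 without in9 replicate 1). Atp5a1, Atp5c1 and Atp5e were named after their values were seen.

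The c ring is built from one mature protein that Atp5g1, Atp5g2 and Atp5g3 all encode. Their summed level was 859, 729 and 758 TPM in in9, against 866, 897 and 902 TPM in LV2, so the groups did not overlap, by a narrow margin for in9 replicate 1. Atp5g3 made up 65.7 to 67.6% of the sum in in9 and 66.3 to 67.8% in LV2, and Atp5g1 29.5 to 32.0% in in9 and 30.1 to 31.5% in LV2. The mix of the 3 genes overlapped between the groups while the sum did not. Atp5g3 had 565, 493 and 502 TPM in in9, against 574, 609 and 609.97 TPM in LV2 (log2 fold change -0.20 ± 0.06, limma adjusted p = 0.155).

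Among the membrane subunits, Atp5k (chr5:108433244-108434448), subunit e, is known for its place where ATP synthase dimers meet. It had 272, 191 and 196 TPM in in9, against 277, 298 and 312 TPM in LV2. The groups did not overlap, but in9 replicate 1 lay close to LV2 (-0.44 ± 0.14, limma adjusted p = 0.160, and 0.00904 without in9 replicate 1). Atp5md, Atp5mpl, Atp5l and Atp5j2 had log2 fold changes of -0.23, -0.20, -0.17 and -0.24. In the peripheral stalk, which holds the head still, Atp5j, Atp5h, Atp5o and Atp5pb had -0.15, -0.11, -0.07 and -0.06.

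**Figure D3:**
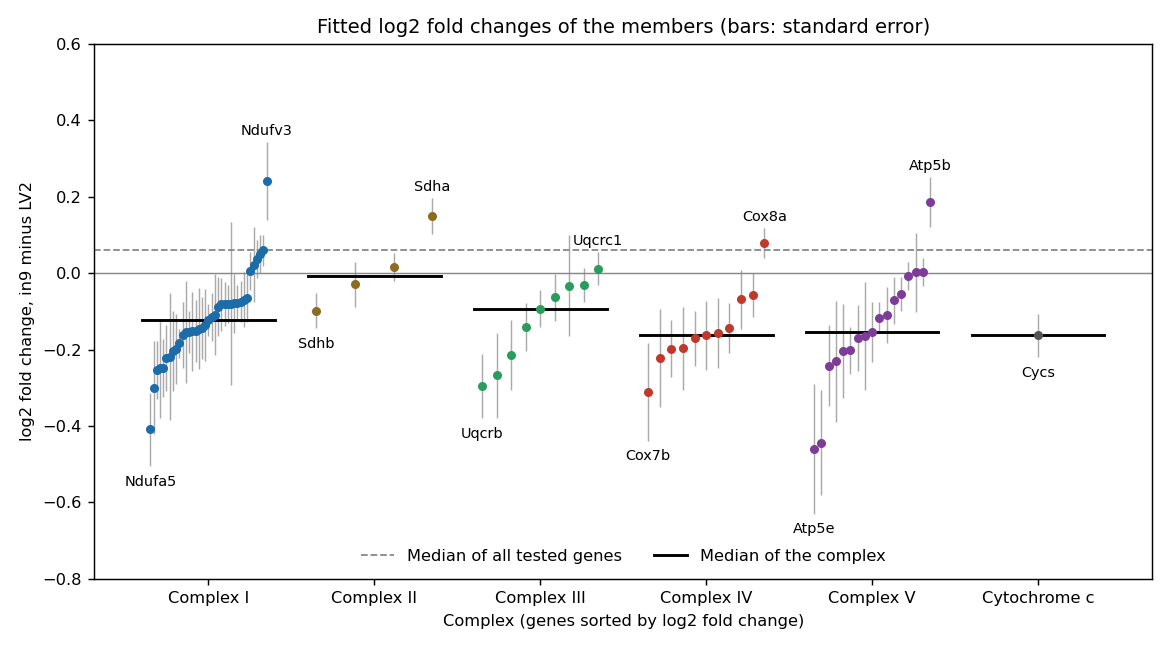
Log2 fold change (in9 minus LV2, limma) of each member with its standard error as a bar, by complex; black lines mark the median of a complex and the dashed line that of all tested genes. Complex II is spread around 0 (median -0.01), and the medians of complexes I, III, IV and V lie at -0.12, -0.09, -0.16 and -0.15, below the 0.06 of all tested genes.

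Summed by complex, the levels of in9 replicate 1 and of replicates 2 and 3 again parted. Complex I summed to 5705, 4880 and 4943 TPM in in9, against 5590.4, 5582 and 5610.2 TPM in LV2. Complex III summed to 2554, 2126 and 2188 TPM in in9, against 2477, 2511 and 2531 TPM in LV2. Complex IV summed to 5453, 4538 and 4664 TPM in in9, against 5249.9, 5236 and 5396 TPM in LV2. In each of these, in9 replicate 1 was the highest of the 6 libraries and in9 replicates 2 and 3 were the lowest. Complex V summed to 7804, 6893 and 7353 TPM in in9, against 7534, 7553 and 7775 TPM in LV2, with in9 replicate 1 the highest and the other two lowest here too. Complex II averaged 490 ± 5.50 TPM in in9 and 490 ± 6.0 TPM in LV2 (SD, n = 3 each).

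Of the 13 subunits encoded on the mitochondrial chromosome, 12 had a positive log2 fold change, while 36.3% of all tested genes had a negative one. The exception was mt-Atp6, at -0.08 ± 0.36 (SE). The SE exceeded the value for mt-Atp6 and also for mt-Co2 (0.30 ± 0.35) and mt-Co3 (0.20 ± 0.49), so these signs are uncertain. With all libraries limma called 1 of the 13 subunits higher and 0 lower, against 1.01% of all tested genes in either direction. Without in9 replicate 1 it called 7 higher (7.25% of all tested genes) and 0 lower (3.80%). The 1 call was mt-Nd4, a proton-pumping subunit of complex I, with 2574, 2644 and 2583 TPM in in9, against 2140.5, 2177 and 2253 TPM in LV2. Its log2 fold change was 0.25 ± 0.04 (limma adjusted p = 0.0453). Over the alternatives without a replicate block its adjusted p ranged between 0.0143 and 0.228; the call was lost without a level filter, with trimmed-mean scaling (0.168), without the intensity trend, with the coding-length trend removed (0.0655) and whenever in9 replicate 2, in9 replicate 3 or an LV2 library was left out. The median of the 13 subunits was 0.20. At an unadjusted p under 0.05, 9 were higher (13.6% of all tested genes) and 0 lower (5.86%). All in9 libraries lay above all LV2 libraries for 8 subunits (17.4% of all tested genes). Among them mt-Co1, the catalytic subunit of complex IV, had 7858, 8742 and 8287 TPM in in9, against 7286, 6951 and 7069 TPM in LV2 (0.22, limma adjusted p = 0.0971). The mt-Atp8 gene, annotated with 204 bases and overlapping mt-Atp6, alone took 33678 to 44251 TPM in in9 and 31728 to 32439 TPM in LV2. With mt-Atp8 left out for this reason, the sum was 29766, 31321 and 30544 TPM in in9, against 26600.3, 26539 and 27237 TPM in LV2. In this sum in9 replicate 1 was above every LV2 library. With mt-Atp8 included the sum was 63444, 75572 and 74097 TPM in in9, against 58328, 58978 and 59360.0 TPM in LV2, and in9 replicate 1 then lay nearer to LV2 than to its group. Since TPM is a share, a higher mitochondrial sum lowers all other values; refitted without the mitochondrial chromosome, limma called 0 members and 65 of 79 had a negative log2 fold change.

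**Figure D4:**
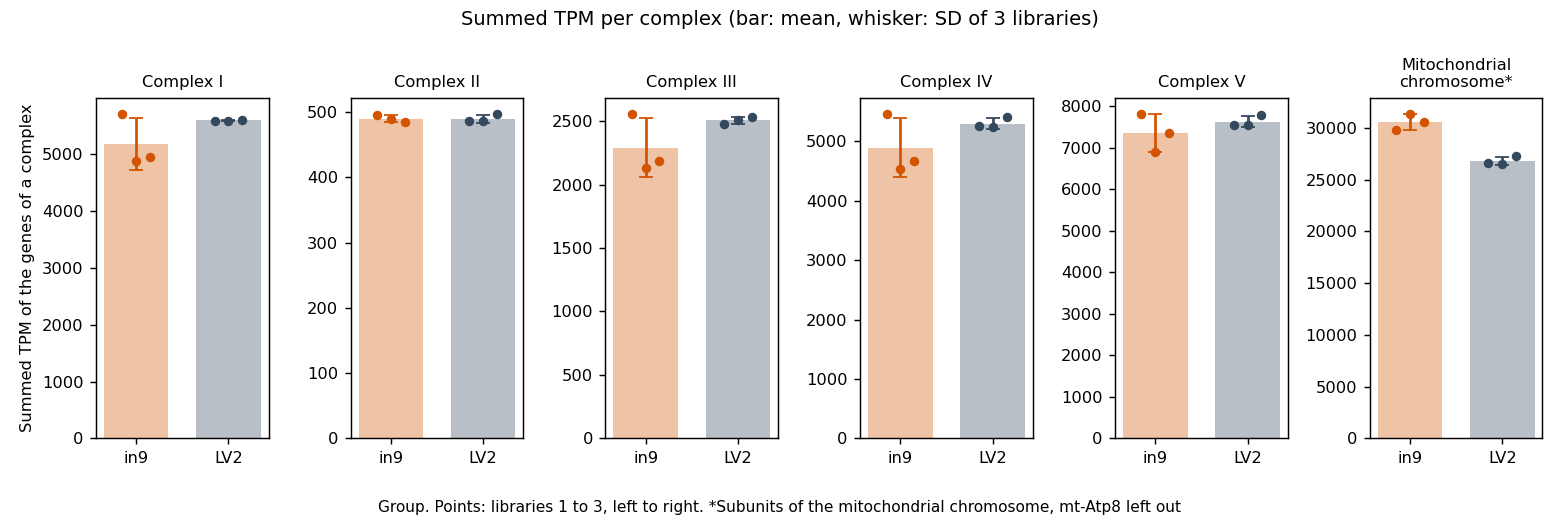
Summed TPM of the nuclear genes of each complex and of the mitochondrially encoded subunits other than mt-Atp8 (bars: mean; whiskers: SD of 3 libraries; points: libraries). In complexes I, III and IV the first in9 point stands above LV2 and the other two below it, while all in9 points of the mitochondrial subunits stand above LV2.

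Most members are short genes, and change followed coding length in these libraries. The longest annotated coding sequence had a median of 417 bases over 78 members, against 1387.5 bases over 10982 other tested protein-coding genes. Across the 78 members, the log2 fold change and the log2 of coding length had a Pearson r of 0.63 and a Spearman rho of 0.57, with genes of the same libraries as points and therefore no p. In complex V these were 0.85 and 0.92 over 17 genes, in complex I 0.57 and 0.39 over 36, in complex III 0.56 and 0.48 over 9, and in complex IV 0.06 and 0.20 over 11. By library, the Pearson r over the members was 0.03 in in9 replicate 1, 0.69 in replicate 2 and 0.66 in replicate 3. Over the other tested genes the r of the log2 fold change was 0.18.

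Within length classes the members' median stayed below that of other genes up to 1500 bases. Up to 300 bases, 20 members had a median log2 fold change of -0.20, against -0.07 for 199 other genes and -0.12 for the 87 of these with at least 50 TPM. In the next class, up to 450 bases, 25 members had -0.15, against -0.05 for 544 other genes and -0.11 for 243 at 50 TPM or more. Up to 600 bases, 12 members had -0.13, against 0.00 for 688 other genes and -0.05 for 298 at 50 TPM or more. Up to 900 bases, 9 members had -0.07, against 0.03 for other genes and -0.02 for those at 50 TPM or more. Up to 1500 bases, 8 members had 0.01, against 0.06 and, at 50 TPM or more, 0.02, so the medians were close there. Up to 3000 bases, the last class with members, 4 members had 0.09, against 0.08 and, at 50 TPM or more, 0.05. With the trend on coding length removed from each library, the medians were -0.10, 0.01, -0.10, -0.10 and -0.09 for complexes I to V, and limma called 3 members lower: Ndufs7 (-0.20, adjusted p = 0.0267), Uqcrb (-0.23, 0.0401) and Ndufa5 (-0.35, 0.0400). In this setting 1.87% of 11060 tested genes were called lower and 2.42% higher. With in9 replicate 1 also left out, 24 members were called lower and 1 higher, against 6.43% and 5.65% of 11058 tested genes. Both settings were chosen after seeing the data. The part of coding length in the single differences was not tested further.

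**Figure D5:**
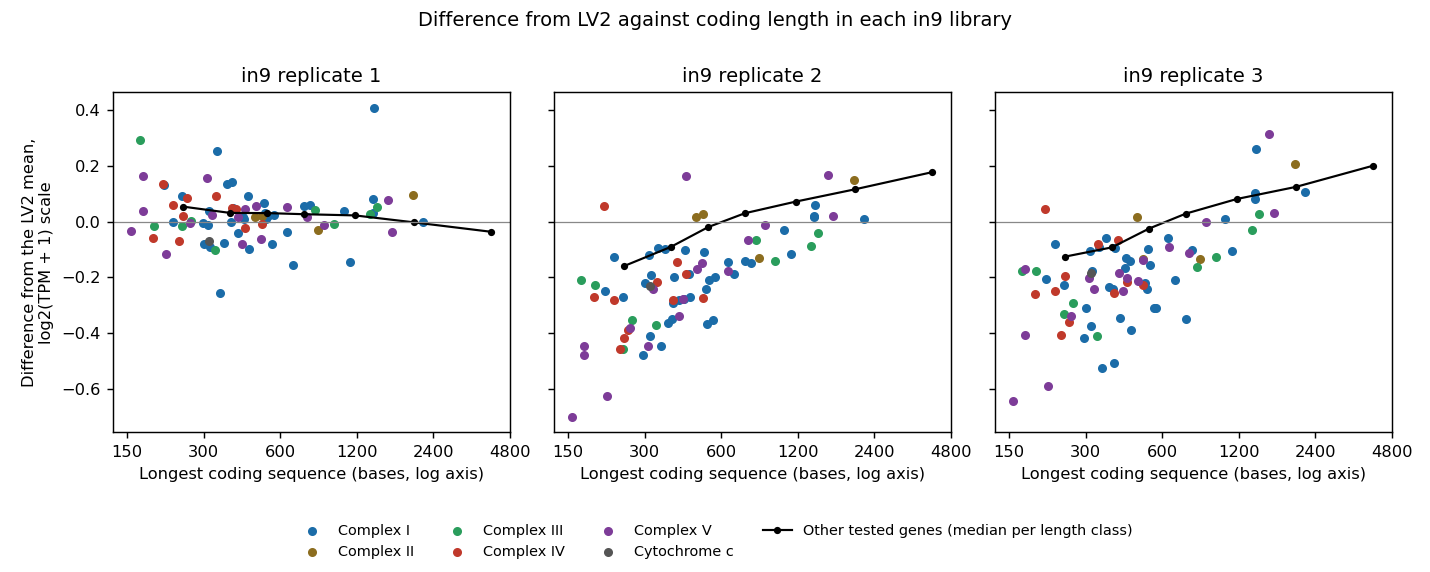
Difference of each in9 library from the LV2 mean (log2(TPM + 1) scale) against the longest coding sequence (bases, log axis) for 78 members, coloured by complex; the black line gives the median of other tested genes per length class. In in9 replicate 1 the members lie flat (Pearson r 0.03), and in replicates 2 and 3 the short ones lie lowest (0.69 and 0.66).

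Genes that assemble or feed the complexes did not share the members' lean to lower values in every case, and none passed the test with all libraries. Beside the counts of this and the next paragraph, 5.86% of all tested genes were lower and 13.6% higher at an unadjusted p under 0.05. Without in9 replicate 1, 3.80% were called lower and 7.25% higher. Of 16 complex I assembly factors 9 had negative values (median -0.04; 2 lower and 1 higher at an unadjusted p under 0.05), and limma called 0 without in9 replicate 1 too. Ndufaf4 had 13.1, 12.9 and 12.6 TPM in in9, against 15.6, 15.8 and 18.5 TPM in LV2 (log2 fold change -0.34, limma adjusted p = 0.109), while Acad9, which has a second role in fatty acid oxidation, had 0.23 (0.181) and Timmdc1 -0.25 (0.234). Of 20 tested complex IV assembly factors, 15 had negative values (median -0.12; 5 lower and 1 higher at an unadjusted p under 0.05). Without in9 replicate 1, limma called 3 of them lower. Cmc2 and Cox15, which makes heme A, had -0.30 and -0.21, and Cox18, which inserts a mitochondrial subunit into the membrane, had 0.22. The assembly factors of complexes II (4 genes), III (6) and V (4) had medians of 0.14, 0.03 and -0.02, with 0 called by limma, with or without in9 replicate 1, and 0 at an unadjusted p under 0.05. The genes with the smallest p of these lists were Sdhaf4 (0.28), Sdhaf3 (0.25), Sdhaf1 (-0.24), Lyrm7 (0.47, at 1.37 to 7.10 TPM), Bcs1l (0.08), Uqcc2 (-0.05), Tmem242 (-0.19), Tmem70 (0.04) and Atpaf2 (-0.01), all with an adjusted p above 0.05.

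Of 14 citric acid cycle genes, 10 had positive values (median 0.03), and limma called 0 (0 lower and 3 higher at an unadjusted p under 0.05). Leaving out in9 replicate 1 gave 1 higher and 0 lower call. Idh2, mitochondrial isocitrate dehydrogenase, had 145, 146 and 148 TPM in in9, against 133, 133.5 and 132 TPM in LV2. The groups did not overlap (log2 fold change 0.14, limma adjusted p = 0.125), and Cs, citrate synthase, had 0.10. Of 10 tested genes of coenzyme Q synthesis, 7 had negative values (median -0.06), and limma called 0 (0 lower and 3 higher at an unadjusted p under 0.05). Leaving out in9 replicate 1 gave 2 higher and 0 lower calls. Coq8b had 8.78, 6.99 and 7.16 TPM in in9, against 5.07, 4.83 and 4.32 TPM in LV2 (0.59, limma adjusted p = 0.0765), and Coq2 and Coq9 had 0.33 and 0.26. Of 11 transcription regulators of respiratory genes, 8 had positive values (median 0.08) and 1 was lower at an unadjusted p under 0.05. Limma called 0 with all libraries and 1 higher without in9 replicate 1. Gabpa had 0.32 (limma adjusted p = 0.278), its partner Gabpb1 -0.16 (0.210) and Yy1 0.15 (0.412). Of 8 tested supercomplex and regulatory factors, some of them also members, 6 had negative values (median -0.06) and 1 was higher at an unadjusted p under 0.05. Limma called 0 with all libraries and 2 lower without in9 replicate 1. Higd2a had 0.25 (0.161), Higd1a -0.20 (0.321) and the matrix protease Lonp1 0.11 (0.286).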

How the data were processed

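Messenger RNA libraries of 4T1 cells, 3 labelled in9 and 3 labelled LV2, were analysed from one matrix of TPM values deposited by the authors. Per the submitters' processing notes the build was mm10; which programs aligned and counted the reads, and with which annotation, is not given in the sources used here. No 2 libraries were identical. Genes with a mean of at least 1 TPM were tested as log2(TPM + 1) with limma 3.58.1 in R 4.3.3 (intensity trend, all 6 libraries, no replicate block, two-sided) and Benjamini-Hochberg adjustment at 0.05; a fold change on this scale understates that of low genes. The procedure was tested on simulated data. Coordinates, coding lengths and 3′ UTRs came from GENCODE M21, which matched 55227 identifiers. The members and gene lists were chosen with earlier results of these data known. Named genes were, by rule, the members with the smallest p of each complex and its highest and lowest levels, and 3 genes of each list; every other gene named in the text was chosen after its values were seen. Alternatives changed the pseudocount (0.1), the level filter, the scaling (trimmed mean of log ratios, quantile, mitochondrial chromosome left out), the intensity trend and the replicate block, left out each library, and removed a loess trend on coding length. Values of some single genes are not reported here, though the counts and medians include them.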

Additional observations from a re-analysis of the deposited data

How the results depend on the processing

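Over all tested genes limma called 110 higher and 26 lower. It called 24 and 6 without a level filter, 27 and 4 without the intensity trend, and 45 lower at a mean of at least 5 TPM. With trimmed-mean scaling the split was 96 higher and 42 lower. The labels do not state that replicate numbers pair libraries. Deviations of same-numbered libraries correlated at -0.10, 0.02 and -0.05, which with 3 libraries a group cannot exclude a pairing. With the replicate number as a block, limma called 1 gene higher and 1 lower, and 0 members. In that fit mt-Nd4 had a limma adjusted p of 0.234. Leaving out each library in turn gave 6 to 971 higher and 1 to 509 lower.

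For the members, no planned setting that kept all libraries called any of the 79. Leaving out each library in turn gave 0 to 32 members lower and 0 to 2 higher; lower calls ranged 0 to 12 in complex I, 0 to 5 in III, 0 to 5 in IV, 0 to 9 in V and 0 to 1 for Cycs, and higher calls 0 to 1 in II and 0 to 1 in V. Removing the coding-length trend, an alternative added after seeing the data, gave 268 genes higher and 207 lower, with 3 members lower (2 of complex I, 1 of III). With in9 replicate 1 also left out, 625 genes were higher and 711 lower, with 24 members lower (11 of complex I, 1 of II, 4 of III, 3 of IV, 5 of V) and 1 of complex IV, Cox8a, higher.

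The complex II median was -0.065 and its sum 96.0% of LV2 with trimmed-mean scaling, and the sum was 101% without the mitochondrial chromosome. The Cycs value was -0.089 with the length trend removed and -0.081 with in9 replicate 1 also left out. The complex III median log2 fold change ranged -0.195 to -0.068 over libraries left out. Signs changed for genes near 0: with trimmed-mean scaling Atp5g2 (-0.054), Sdhd (-0.043), Uqcrc1 (-0.047) and Tmem70 (-0.017). With quantile normalization they changed for Atp5g2 (-0.072), Bcs1l (-0.00082) and Tmem70 (-0.028), and without the mitochondrial chromosome for Atpaf2 (0.0041). With the length trend removed Uqcrc1 was at -0.058. With in9 replicate 1 also left out, Uqcrc1 was at -0.10, Uqcr10 at 0.011, Bcs1l at -0.055 and Lonp1 at -0.0092. Over libraries left out, Atp5g2 ranged -0.078 to 0.10, Uqcrc1 -0.0075 to 0.039, Cox6a1 -0.15 to 0.0052, Sdhc -0.058 to 0.024, Atpaf2 -0.050 to 0.046 and Uqcc2 -0.13 to 0.0032. The cause of these changes was not tested. Without read counts, counting error is unknown, and with 3 libraries a group a single library decides most calls.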
